A study of Mus musculus with 2 samples.

Results

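The isolated strong distal peaks were 40 windows of open chromatin in the embryonic mouse neural tube, out of 194486 peaks that replicate 1 had on chromosomes 1 to 19. They were chosen by the peak score of both libraries and by position: a score of at least 105 in replicate 1, overlap with a replicate 2 peak scoring at least 83, a centre over 5 kb from any protein-coding transcription start site (TSS), and no other replicate 1 peak centre within 12.5 kb. The score left 20129 peaks, overlap with any replicate 2 peak 19274, and the replicate 2 score 14632. The distance to a protein-coding TSS then left 2079 and isolation 40. Of the 521 peaks that met the scores and the isolation at any distance from a TSS, 481 lay within 5 kb of a protein-coding TSS. Both words in the name hold only in part. In GENCODE, 14 of the 40 peaks lay within 1 kb of the start of a gene or transcript not annotated as protein-coding. With RefSeq starts counted as well, 18 of the 40 had a start within 1 kb. In replicate 2, 19 of the 40 had another peak within 12.5 kb.

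The tissue was neural tube from B6NCrl embryos at 11.5 days, with males and females pooled. The labels give 1 group and 2 libraries, replicate 1 and replicate 2, made from separate tissue samples under 1 donor label. Both were run on several sequencer models, and the labels list an additional model for replicate 2. Since there is 1 group, no test across samples was run. The peaks are set beside 2039 crowded strong distal peaks, which met the same rule but had another replicate 1 peak within 12.5 kb, and beside 6527 weaker isolated distal peaks, which were isolated and distal and overlapped a replicate 2 peak but missed a score minimum. The 133922 distal peaks of replicate 1 are the wider background, and 64030 of them overlapped a replicate 2 peak.

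DNase I cuts DNA where nucleosomes are displaced, mainly at promoters, at enhancers and at sites held by the zinc-finger protein CTCF. CTCF binds a long motif and, with cohesin, anchors chromatin loops and insulates genes from enhancers beyond the site, and the orientation of the motif matters for which sites pair. Developmental enhancers usually come in groups around a gene, whereas CTCF sites can stand alone.

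The CTCF core searched was CCANNAGNNGGC on both strands, and 8 of the 40 peaks held it. The 8 matches are shown with 8 bases to either side, read 5′ to 3′ on the strand of the match, because they carry the comparison with the insulator motif. Capitals mark the core, and each peak is named by its nearest protein-coding gene. Coordinates are on mm10, and the bases are from the RefSeq GRCm38.p6 sequence of that assembly.
Uri1, chr7:38061215-38061242, plus strand: aagcgcagCCACCAGATGGCagcagatg
Rab6b, chr9:103092327-103092354, plus strand: gtagtctgCCACTAGGCGGCgccgctca
Slc4a3, chr1:75559668-75559695, minus strand: aaaaaccaCCACCAGAGGGCtacacacg
Gm10309, chr17:86445092-86445119, minus strand: aagtctggCCACAAGGGGGCatgagagc
Ctse, chr1:131658276-131658303, minus strand: cagcgtcgCCAGTAGAGGGCgcaggcac
Gm21962, chr3:137753105-137753132, minus strand: actgagtaCCACGAGAGGGCgccagtgg
Gm26558, chr2:70704540-70704567, plus strand: gttataggCCACCAGGTGGCgctgcgaa
Nrxn3, chr12:89106605-89106632, minus strand: ctttcttcCCAGCAGAGGGCagcagccg

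3 of the 8 matches were on the plus strand and 5 on the minus strand. The Uri1, Rab6b, Gm10309 and Ctse peaks are shown whole as the best-ranked peaks with the core that do not overlap an untranslated region, and capitals again mark the core or its reverse complement.
Uri1 peak, chr7:38061216-38061365, plus strand: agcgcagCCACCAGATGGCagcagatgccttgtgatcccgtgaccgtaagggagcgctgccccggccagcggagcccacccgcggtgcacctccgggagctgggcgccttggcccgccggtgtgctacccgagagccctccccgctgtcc
Rab6b peak, chr9:103092276-103092425, plus strand: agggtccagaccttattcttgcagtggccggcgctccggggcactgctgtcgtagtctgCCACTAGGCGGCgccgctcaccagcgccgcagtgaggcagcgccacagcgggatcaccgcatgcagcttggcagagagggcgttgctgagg
Gm10309 peak, chr17:86445016-86445165, plus strand: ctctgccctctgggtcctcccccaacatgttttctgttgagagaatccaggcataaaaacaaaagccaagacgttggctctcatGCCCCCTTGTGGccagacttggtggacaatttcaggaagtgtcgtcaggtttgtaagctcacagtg
Ctse peak, chr1:131658196-131658345, plus strand: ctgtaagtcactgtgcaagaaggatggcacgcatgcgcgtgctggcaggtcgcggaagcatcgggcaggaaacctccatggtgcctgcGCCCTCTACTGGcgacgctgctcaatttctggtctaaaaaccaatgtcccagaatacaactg

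The best-ranked peaks without the core that could be shown were those nearest Eif4g2, Zfp518a and Wnt7a. In these, capitals mark CCAAT, the letters read by the promoter factor NF-Y, and TGACG, the short site of CREB and ATF factors, on either strand. The Gsdmc peak, chosen after its values were seen because it overlaps an enhancer tested in embryos, has neither and is shown in lower case.
Eif4g2 peak, chr7:111122716-111122865, plus strand: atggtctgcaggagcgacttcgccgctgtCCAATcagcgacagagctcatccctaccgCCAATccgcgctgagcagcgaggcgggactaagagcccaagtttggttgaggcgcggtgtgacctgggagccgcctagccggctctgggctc
Zfp518a peak, chr19:40873396-40873545, plus strand: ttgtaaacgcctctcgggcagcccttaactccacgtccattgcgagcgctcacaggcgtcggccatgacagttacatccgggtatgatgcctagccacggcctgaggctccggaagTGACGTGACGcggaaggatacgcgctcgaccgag
Wnt7a peak, chr6:91440856-91441005, plus strand: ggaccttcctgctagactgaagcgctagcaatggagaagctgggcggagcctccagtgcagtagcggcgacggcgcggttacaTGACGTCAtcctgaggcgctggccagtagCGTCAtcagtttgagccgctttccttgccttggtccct
Gsdmc peak, chr15:62903116-62903265, plus strand: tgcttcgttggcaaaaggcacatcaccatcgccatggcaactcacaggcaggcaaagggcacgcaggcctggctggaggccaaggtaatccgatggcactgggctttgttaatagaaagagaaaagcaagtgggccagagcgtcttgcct

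The scores that chose the peaks ran between 105 and 142 in replicate 1, with a median of 120, and between 83 and 129 in replicate 2, with a median of 92. They are the authors' own whole numbers of unstated meaning and serve only to rank peaks within a library. In the crowded strong distal peaks the medians were 122 and 95. Just inside the rule, the Klhl29 peak scored 105 in replicate 1 and the Sox9 and Gsdmc peaks 83 in replicate 2. Just outside it, isolated peaks near Pkdcc and Acsbg1 scored 104 in replicate 1 and those near Sema5b, Crtap and Irs2 82 in replicate 2. The nearest other peak was 12740 bp away for the Kif1a and Uri1 peaks, just inside, and 12400 bp for a peak near Map2k3, just outside. The nearest protein-coding TSS was 5052 bp away for the Gm11273 peak, just inside, and 3669 bp for a peak near Slc14a1, just outside.

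The Eif4g2 peak at chr7:111122716-111122865 ranked first among the 40 in both libraries, with scores of 142 and 129 in replicates 1 and 2. It lay 39.8 kb upstream of Eif4g2, which encodes a translation initiation factor, and 106 bp from the start of the non-coding gene 1700012D14Rik. The Zfp518a peak at chr19:40873396-40873545 scored 135 and 120 and lay 21.2 kb upstream of that zinc-finger gene. The Wnt7a peak at chr6:91440856-91441005 scored 132 and 119. It lay 29.6 kb upstream of Wnt7a, a secreted Wnt ligand of the developing neural tube, and 18 bp from the start of the transcribed pseudogene 4930471M09Rik.

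An intronic peak of Nol4 on chromosome 18 scored 135 and 114. The Kif1a peak, upstream of the gene of an axonal kinesin motor, scored 135 and 113, and the Mog peak, upstream of the gene of a myelin glycoprotein, 134 and 115. The remaining 4 of the 10 best-ranked peaks were those nearest Slc23a3 at 129 and 121, 2010111I01Rik at 131 and 116, Uri1 at 134 and 108, and Ubash3b at 125 and 119. Replicate 1 had the higher number at each of these 10 peaks, but the scores of separate lists are not on a shared scale.

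**Figure D1:**
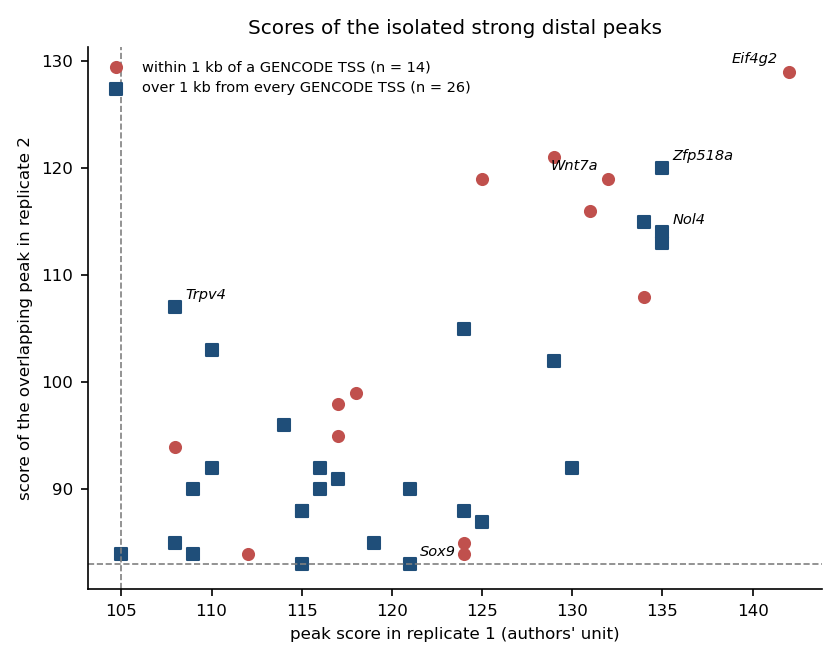
Score of each of the 40 isolated strong distal peaks in replicate 1 (x axis) and of the overlapping peak in replicate 2 (y axis), in the authors' unit, with dashed lines at the minimums of 105 and 83. Red circles are the 14 peaks within 1 kb of any GENCODE TSS and blue squares the 26 others, 4 of which have a RefSeq start within 1 kb, and both kinds run through the range of scores.

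Every one of the 40 peaks lay in a hotspot, the authors' term for a broader region of enriched cutting, in both libraries. At every peak the deposited −log10 q-value of that hotspot was at its cap of 100. This is not particular to them, since the cap was reached at 2038 and 2039 of the 2039 crowded strong distal peaks in replicates 1 and 2. Of the 6527 weaker isolated distal peaks, 3724 and 1848 reached it. The median hotspot width at the isolated strong distal peaks was 1060.5 bp in replicate 1 and 750 bp in replicate 2. Hotspots at the crowded strong distal peaks were wider, with medians of 1373 and 967 bp, and those at the weaker isolated distal peaks narrower, with medians of 357 and 245 bp. The widest was at the Eif4g2 peak with 2070 and 2024 bp, and the narrowest at the Ppp6c peak with 582 and 365 bp. No test was run on the widths, since the score was part of the rule. The peak centres of the libraries lay within 20 bp of each other at 34 of the 40 peaks. The median offset was 20 bp in these, in the crowded strong distal peaks and in the weaker isolated distal peaks alike.

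**Figure D2:**
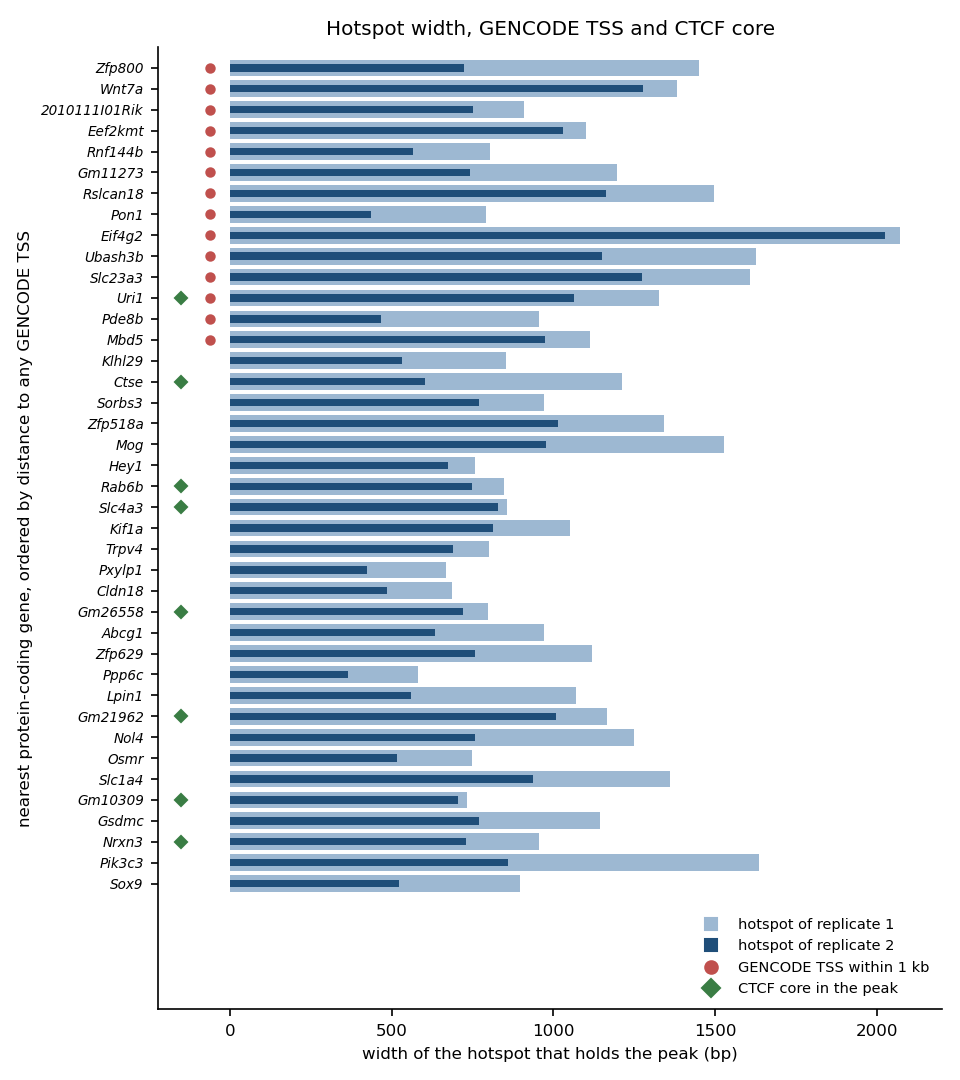
Width in bp of the hotspot that holds each isolated strong distal peak in replicate 1 (light bars) and replicate 2 (dark bars), with peaks named by the nearest protein-coding gene and ordered from the closest GENCODE TSS at the top. Red circles mark a GENCODE TSS within 1 kb and green diamonds the CTCF core, and of the 8 peaks with the core the Uri1 peak has such a TSS while the Gm10309 and Gm26558 peaks have a RefSeq start within 1 kb.

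Replicate 2 was not used to define isolation, so it gives a separate view of it. 21 of the 40 peaks, or 52.5%, had no other replicate 2 peak within 12.5 kb, 13 had 1 and 6 had 2. Among the crowded strong distal peaks 3.92% had none, and among the weaker isolated distal peaks 72.9% had none. The 25 additional replicate 2 peaks had scores of 7 to 102 with a median of 15, and 13 of them, at 10 of the peaks, lay within 1 kb. 11 of the 25 fell in the same replicate 1 hotspot as the isolated peak, and the other 14 in no replicate 1 hotspot.

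The additional peaks with the highest scores were at the 2 best-ranked members. At Eif4g2, replicate 2 had further peaks with scores of 95 and 87 at 0.28 and 0.5 kb from the centre, and at Zfp518a a peak with a score of 102 at 0.24 kb. All 3 lay within the replicate 1 hotspot of the isolated peak, in which replicate 1 listed a single peak. The Rslcan18 peak had a neighbour of score 45 at 0.32 kb, and every other additional peak scored 24 or less. In replicate 1, 39 of the 40 peaks, or 97.5%, had no other hotspot within 12.5 kb, and in replicate 2, 24 of 40, or 60%. The shares were 98.0% and 71.8% in the weaker isolated distal peaks and 2.35% and 5.84% in the crowded strong distal peaks. The rule allowed no other replicate 1 peak centre in that distance, so the replicate 1 count is no separate view of isolation.

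The stretch around a peak that was free of other replicate 1 peaks had its longest extent at the Pik3c3 peak on chromosome 18, with 257 kb, although replicate 2 had a peak of score 14 at 9.5 kb there. The Mbd5 peak, in the gene of a methyl-CpG-binding-domain protein, had 187 kb, and the Nol4 peak 101 kb. At Mbd5, replicate 2 had further peaks of scores 24 and 10 at 0.58 and 0.68 kb from the centre. The Slc23a3 peak, in an intron of the DNA end-joining gene Nhej1, had 89.1 kb, and the Gsdmc peak 85.8 kb. The shortest was 26.4 kb at the Kif1a peak.

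**Figure D3:**
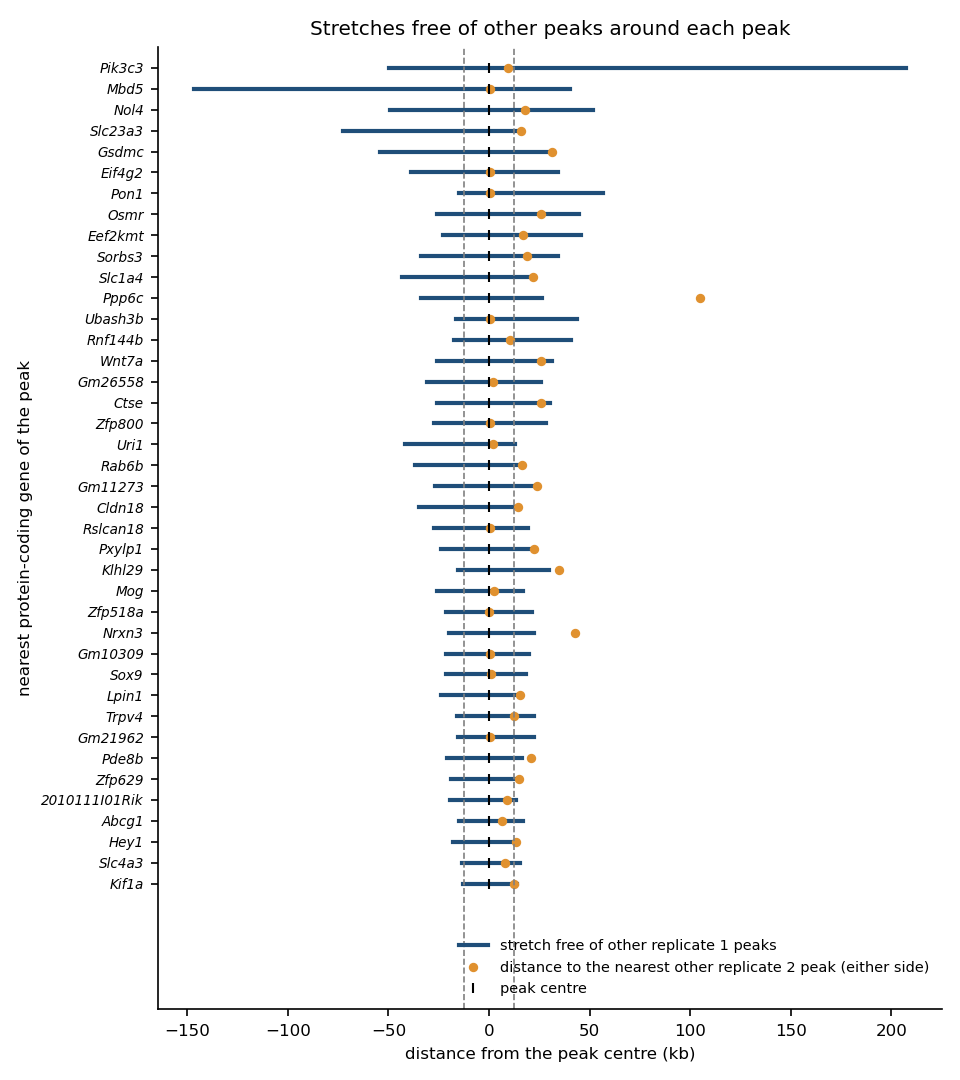
Blue lines show, in kb from each isolated strong distal peak (x axis), the stretch without another replicate 1 peak, and orange points the distance to the nearest other replicate 2 peak, drawn to the right whichever side it was on. Dashed lines mark 12.5 kb, and 19 of the 40 orange points lie inside that distance although every blue line reaches beyond it.

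26 of the 40 peaks were intergenic with respect to protein-coding genes, 11 were intronic and 3 exonic. The shares of 65%, 27.5% and 7.5% stand beside 68.3%, 25.3% and 6.38% in the crowded strong distal peaks and 56.3%, 40.1% and 3.62% in the weaker isolated distal peaks. The exonic peaks were in an untranslated region of Slc4a3, an anion exchanger gene, in coding sequence of an Mbd5 transcript and in an exon of Wdr41. 26 of the 40 lay upstream of the nearest protein-coding TSS, a count not made in the other sets, so it shows no preference for a side. The median distance to that TSS was 34.9 kb, against 26.3 kb in the crowded strong distal peaks and 64.7 kb in the weaker isolated distal peaks.

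By the rule the peaks were far from GENCODE protein-coding starts, but not from other starts. 14 of 40, or 35% (95% exact binomial interval 20.6% to 51.7%), lay within 1 kb of the start of any GENCODE transcript, against 22.1% of the crowded strong distal peaks, 4.92% of the weaker isolated distal peaks and 6.51% of all distal replicate 1 peaks. The intervals here cover counting error only. The interval includes the share in the crowded strong distal peaks and lies above the other 2 shares. 8 of the 14 were within 100 bp of the start. Counting RefSeq starts as well, 18 of 40 peaks, or 45%, had a start within 1 kb, against 30.4% of the crowded strong distal peaks and 9.34% of all distal replicate 1 peaks.

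At 8 of the 14 peaks the start belonged to a gene not annotated as protein-coding. The 6530409C15Rik start was 5 bp from the centre of the Zfp800 peak, 4930471M09Rik 18 bp from the Wnt7a peak, Gm41414 49 bp from the Eef2kmt peak, 4930471G24Rik 60 bp from the Rnf144b peak and Zfp389 63 bp from the Gm11273 peak. 1700012D14Rik, Gm48710 and Gm30684 started 106, 188 and 410 bp from the Eif4g2, Ubash3b and Uri1 peaks. At the other 6 the start belonged to a protein-coding gene, but to a transcript that GENCODE does not annotate as protein-coding. These were 2010111I01Rik at 23 bp, Gm28557 at 66 bp from the Rslcan18 peak, the neuronal actin-binding gene Ppp1r9a at 89 bp from the Pon1 peak, Nhej1 at 250 bp from the Slc23a3 peak, Wdr41 at 526 bp from the Pde8b peak and Mbd5 at 566 bp. For 2010111I01Rik, RefSeq places the start of an mRNA, named Aopep there, at the same 23 bp, and for Nhej1 one at 276 bp.

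For 5 peaks the nearest protein-coding TSS was over 100 kb away. The Pik3c3 peak was 2195 kb from that lipid kinase gene and 2324 kb from Celf4 on its other side, in a gene desert of chromosome 18. The Gsdmc peak at chr15:62903116-62903265 lay almost midway between the proto-oncogene Myc, 916 kb to one side, and Gsdmc, 906 kb to the other. The Rnf144b peak was 474 kb from Rnf144b and 594 kb from Id4, an inhibitor of bHLH factors in neural progenitors. The Sox9 peak at chr11:112501916-112502065 was 280 kb upstream of Sox9, a transcription factor of neural progenitors and glia, with the potassium channel gene Kcnj2 1436 kb away on the other side. The Ppp6c peak was 147 kb upstream of that phosphatase gene.

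The Gsdmc peak lay inside an enhancer that RefSeq lists from the VISTA collection, chr15:62902694-62903900, annotated as active in the neural tube in 4 of 7 transgenic embryos. It scored 115 and 83, and replicate 2 had no other peak within 31.5 kb of it. The Ubash3b peak lay in a VISTA element of chr9:41227902-41230545, annotated for limb in 3 of 5 embryos. These 2 of 40 were the only peaks in a RefSeq regulatory element, a share of 5%, against 5.10% of the crowded strong distal peaks.

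The 40 peaks had 40 different nearest protein-coding genes, so none was nearest to several. Of 102 neural patterning and progenitor factors, Sox9 was the nearest gene of a peak, which is 2.5% of the peaks against 3.87% of the crowded strong distal peaks. Of 104 genes of neuronal adhesion, synapse and channels, Nrxn3, a presynaptic adhesion protein, was the nearest gene of a peak in its own intron, again 2.5% against 0.834%. Zinc-finger genes named Zfp were nearest to 3 peaks, namely Zfp518a, Zfp629 and Zfp800, or 7.5% against 3.09%. None of the 22 genes of the insulator and cohesin machinery was nearest to a peak, against 0.147% of the crowded strong distal peaks. At so low a share, a count of 0 in 40 peaks is no result about these genes.

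A promoter peak, within 500 bp of a protein-coding TSS, was present in both libraries at 28 of the 40 nearest genes, or 70%. The share was 84.1% of the 1454 genes nearest to a crowded strong distal peak and 66.5% of all protein-coding genes. 11 of the 40 had none in either library, among them Mog, the gasdermin gene Gsdmc, the claudin gene Cldn18 and the protease gene Ctse. Taken singly, replicate 1 had one at 70% of the 40 and at 68.5% of all protein-coding genes, and replicate 2 at 72.5% and 67.7%. For genes nearest to a crowded strong distal peak these shares were 85.8% and 85.1%. 7 of the 40 peaks lay in the body of their nearest gene.

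The peaks were thinly spread. The 24 pairs of neighbours on a chromosome were a median of 22.3 Mb apart, while neighbouring strong distal peaks of any kind were a median of 268 kb apart. With 40 peaks against 2079, a wider spacing follows from the numbers alone and is no result about location. The closest pair lay 435 kb apart on chromosome 1, near Slc23a3 and Slc4a3, and the next on chromosome 9, with 2813 kb between the Pxylp1 and Cldn18 peaks and 3362 kb between the Cldn18 and Rab6b peaks. The widest spacing was 129 Mb, on chromosome 3, between the peaks near Hey1, a Notch target gene, and Gm21962. The Slc1a4 and Sox9 peaks on chromosome 11 lay 92101 kb apart and the Uri1 and Eif4g2 peaks on chromosome 7 73061 kb apart. In none of the 24 pairs did both peaks hold the CTCF core, so no pair had orientations to compare.

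Chromosome 13 held 5 peaks and chromosomes 1 and 9 held 4 each. Chromosomes 4, 8 and 10 held none, beside 173, 98 and 66 crowded strong distal peaks. Only 40 of the 2079 strong distal peaks were isolated, and the highest share on a chromosome was 4.27%, on chromosome 13. With so few, these counts are no result about location.

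The CTCF core was in 8 of the 40 isolated strong distal peaks, or 20% (95% exact binomial interval 9.05% to 35.6%). It was in 10% of the crowded strong distal peaks, 16.4% of the weaker isolated distal peaks, 11.8% of the weaker crowded distal peaks and 8.18% of all distal replicate 1 peaks. The interval from 40 peaks includes the first 3 of these shares and lies above the last. The last set is unlike the others, since only 64030 of its 133922 peaks overlapped a replicate 2 peak. Every peak of the other sets did, so the last share shows no excess of the core in the isolated strong distal peaks. In windows of 150 bp centred 1 kb to either side, the core was in 0 of 80 around the isolated strong distal peaks, 1.54% around the crowded strong distal peaks and 1.08% around all distal replicate 1 peaks. Allowing 1 mismatch, 55% of the isolated strong distal peaks (38.5% to 70.7%) and 40.3% of the crowded strong distal peaks held a match. The shares were 42.3% in the weaker isolated, 34.7% in the weaker crowded and 27.2% in all distal replicate 1 peaks. So loose a pattern was common in every set, and the interval includes the crowded strong and weaker isolated shares.

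In strong and weaker distal peaks alike, the share with the core was lower where the next replicate 1 peak lay within 1 kb. Among strong distal peaks it was 6.03% where the next peak lay under 0.5 kb away, 8.78% at 0.5 to 1 kb, 15.7% at 1 to 2.5 kb, 16.9% at 2.5 to 5 kb, 17.9% at 5 to 12.5 kb and 20% in the isolated ones. Among strong distal peaks the intervals of the bins beyond 1 kb overlapped, and a difference among them was not detectable at these numbers of peaks. Leaving out peaks within 1 kb of a GENCODE TSS, the shares in the same order were 6.15%, 9.98%, 17.6%, 17.3%, 20.3% and 26.9%. Leaving out those near a RefSeq start as well, they were 6.53%, 10.5%, 17.8%, 17.9%, 21.1% and 22.7%. Among weaker distal peaks found in both libraries the shares over the same bins were 5.39%, 8.70%, 17.2%, 18.9%, 17.9% and 16.4%. The share in the weaker isolated distal peaks, with an interval of 15.5% to 17.3%, was thus below the 18.9% at 2.5 to 5 kb, with an interval of 17.98% to 19.8%. Peaks under 1 kb apart can lie in the same hotspot, and the shares and intervals count each such peak singly, as if independent. Median GC content in the 6 strong bins was between 60% and 62%. The part that shared hotspots, GC content or nearby starts have in these shares was not tested.

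**Figure D4:**
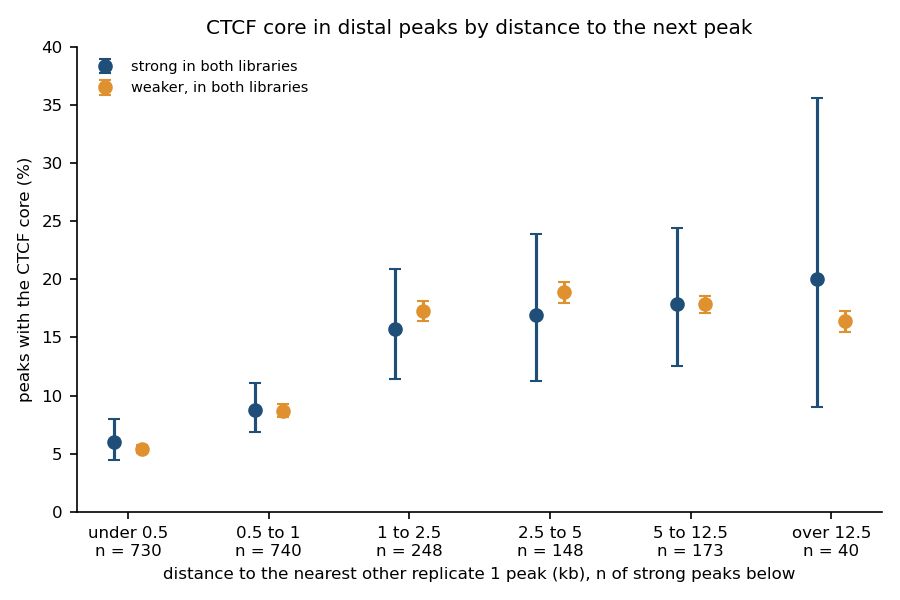
Percent of distal peaks with the CTCF core (y axis) by distance to the nearest other replicate 1 peak in kb (x axis), for peaks strong in both libraries (blue) and weaker peaks found in both (orange), with 95% exact binomial intervals that cover counting error only. The 40 isolated strong distal peaks are the last blue point at 20%, and the shares in both sets are lower where another peak lies within 1 kb. Peaks were counted singly, also where several can lie in the same hotspot.

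Among the 14 peaks within 1 kb of a GENCODE TSS 1 held the core, the Uri1 peak, and among the 26 farther away 7 did, or 26.9% (11.6% to 47.8%). With RefSeq starts counted as well, 3 of 18 near a start held it, or 16.7% (3.58% to 41.4%), and 5 of 22 farther away, or 22.7% (7.82% to 45.4%), with the Gm10309 and Gm26558 peaks 103 and 237 bp from RefSeq starts. These intervals overlap, and a difference between peaks near a start and peaks far from one was not detectable. At 4 of the 8 peaks the core lay within 30 bp of the peak centre, with a median offset of 33 bp. In the crowded strong distal peaks 58.4% of matches lay that close, with a median of 24 bp, and in the weaker isolated distal peaks 78.4%, with a median of 15 bp. The Rab6b match was 10 bp from the centre, the Gm10309 match 15 bp and the Ctse match 19 bp, while the Uri1 and Gm21962 matches were 62 and 68 bp away, at the edge of the window.

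Several of the 8 lay inside other genes than the one nearest. The Rab6b peak, scores 124 and 105, was in an intron of the prostaglandin transporter gene Slco2a1, 19.4 kb upstream of Rab6b, a small GTPase gene. The Gm10309 peak was in an intron of Prkce, a protein kinase C, and the Gm26558 peak in an intron of the Golgi protein gene Gorasp2. The Ctse and Nrxn3 peaks were intronic and the Slc4a3 peak exonic in the nearest gene, and the Uri1 and Gm21962 peaks were intergenic. In replicate 2 the Rab6b, Ctse and Nrxn3 peaks had no other peak within 12.5 kb.

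The labelled tissue was checked by promoter peaks. All 16 neural tube markers had one in both libraries, as did 21 of 22 genes of the insulator and cohesin machinery, with the testis-expressed Ctcfl in neither. Of markers of other tissues, 1 of 6 erythroid, 1 of 6 striated muscle, 0 of 5 liver and 0 of 5 lymphocyte genes had a promoter peak in both libraries. The embryos' tissue was not sorted, so a peak cannot be assigned to a cell type, and read depth is unknown.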

How the data were processed

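Peaks and hotspots from 2 DNase-seq libraries were used. Per the submitters' readme, the authors called both on mm10 in each library separately. Aligner, caller and threshold are not given in the sources read. The authors deposited peaks of 150 bp with a score of at most 150 and, per the file values, hotspots with a −log10 q-value capped at 100. Repeated rows were removed, 45 in replicate 1 and 22 in replicate 2. Distances were taken from peak centres to GENCODE vM21 starts, with 54361 TSSs of 21853 protein-coding genes. Overlap required 1 bp. Motifs were searched on both strands of the GRCm38.p6 RefSeq sequence, and RefSeq gave further starts and enhancer elements. Scripts in Python 3.11.15 with NumPy 2.4.6 and SciPy 1.17.1 were tested on simulated peaks and sequences. Shares carry Clopper-Pearson 95% intervals, which cover counting error only, and no p-values were computed. The files hold no read counts, so sequencing depth is unknown.

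The peaks and gene lists were chosen with earlier results of these data known. Peaks named are the 10 of best mean rank of score, the 5 farthest from a protein-coding TSS, the 5 with the longest free stretch, the 3 closest and 3 widest neighbouring pairs, and those shown as sequences. Nearest genes were named where they belong to a gene list. Peaks with the CTCF core, at a start not annotated as protein-coding or in an enhancer element were named after their values were seen. Sequence is shown for the 5 best-ranked peaks with the core and the 3 best without it, leaving out chromosome 18. For the peak in an untranslated region only the match is shown.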

Additional observations from a re-analysis of the deposited data

How the results depend on the processing

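Of 79 recomputed values 61 stayed within their interval or within 1.5 times the count. The number of isolated strong distal peaks followed the limits: 68 at an isolation distance of 10 kb, 12 at 25 kb, 21 with isolation in both libraries, 67 with score minimums 5 lower, 26 at over 20 kb from a protein-coding TSS and 23 when starts of all genes counted. Without 1 of the libraries it was 104 to 131. Replicate 1 alone gave 131, including all 40, and replicate 2 alone gave 104, of which 20 were among the 40. The share with the CTCF core moved to 55% with 1 mismatch. It was 10% with a full degenerate consensus, 27.5% with 50 bp added to either side, 14.3% with isolation in both libraries, 18.5% and 23.9% with minimums 5 higher and lower, and 13.5% to 19.1% without 1 library. In crowded strong distal peaks that share was 7.39% and 12.7% with minimums 5 higher and lower, 40.3% with 1 mismatch, 5.30% with a full degenerate consensus, 13.3% with 50 bp added to either side, and 11.5% to 12.1% without 1 library. A weight matrix, chosen after seeing the data, gave 20% for the isolated and 10.9% for the crowded strong distal peaks. It was built from core matches in the other distal peaks, so it is no independent check, and it gained the Lpin1 peak and lost the Gm21962 peak. The median TSS distance was 52.1 kb when over 20 kb was required. No peak was at least 50% repeat, or 0%, where 27.5% overlapped one. The cause of these shifts was not tested beyond the changed limits themselves. No paired analysis was possible because the labels give 1 group. With 40 peaks and 2 libraries, shares are known only to within the intervals given.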

Other observations

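The isolated strong distal peaks were rich in GC, with a median of 60%, against 61.3% in the crowded strong distal peaks and 50% in the weaker isolated distal peaks. The ratio of observed to expected CpG was at least 0.6 in 9 of the 14 peaks within 1 kb of a GENCODE TSS and in 11 of the 26 others. With RefSeq starts counted as well it was so in 11 of 18 near a start and 9 of 22 others. It was so in 48.3% of the crowded strong distal peaks and 8.25% of all distal replicate 1 peaks. 11 of the 40 peaks overlapped a soft-masked repeat, or 27.5%, against 33.3% of the crowded strong distal peaks and 44.9% of all distal replicate 1 peaks.

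Other short motifs were searched on both strands, and no test was run on them. TGACG, the short site of CREB and ATF factors, was in 10 of 40 peaks, or 25% (12.7% to 41.2%), against 13.2% of the crowded strong distal peaks and 7.04% of all distal replicate 1 peaks. The whole palindrome TGACGTCA was in 2 of the 40, or 5% (0.611% to 16.9%), against 1.57% and 0.293%. The interval includes the share in the crowded strong distal peaks. GGGCGG, the letters read by SP factors at promoters, was in 27.5%, against 35.9% and 5.87%. TTGGCA, the short site of the NFI factors, was in 15%, against 5.98% and 8.81%, and CCAAT in 20%, against 19.1% and 18.2%.

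CATCTG, an E-box read by proneural bHLH factors, was in 1 of 40 peaks, or 2.5% (0.0633% to 13.2%), against 11.6% of the crowded strong distal peaks and 17.7% of all distal replicate 1 peaks. ACAAAG, read by SOX factors, was in 10%, against 16.9% and 16.5%, and the homeobox letters TAATTA in 2.5%, against 1.57% and 4.07%. The core of the neuronal repressor REST was in 0 of 40, which allows a share of up to 8.81%, against 0.147% and 0.205%.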
